A study of Mus musculus with 4 samples.

Results

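Eosinophil development is set by a small group of transcription factors, and their transcripts were examined here in eosinophils sorted from bone marrow and from the pleural cavity of tumor-bearing mice. The group was chosen by gene symbol alone. It took Gata1, Gata2, Spi1, Id2 and the C/EBP genes Cebpa, Cebpb, Cebpd, Cebpe and Cebpg, 9 symbols in all. Of these, 6 were among the 5807 genes of the deposited comparison table: Gata1, Gata2, Spi1, Id2, Cebpd and Cebpg. Cebpa, Cebpb and Cebpe were not listed, so no value or direction can be given for them. The libraries came from wild-type mice injected with LLC (Lewis lung carcinoma) tumor cells, with 2 libraries of bone marrow eosinophils and 2 of pleural lavage eosinophils, called marrow and pleural eosinophils below. Per the study's methods the mice were 6 to 8 weeks old, received 150000 tumor cells into the pleural space, and gave the cells at day 2. The sample titles and the methods put LLC on both tissues, whereas the study's results text calls the marrow cells naive. If the marrow donors were not injected, tissue and injection cannot be told apart. The sorts differed. Bone marrow cells were enriched on F4/80 and gated as SiglecF+ SSChi, whereas pleural cavity cells were enriched on CD45 and gated further as CD11c-, Gr1-/low, CD11b+ and F4/80+. For the sorted cells the methods report near-complete purity. How many mice were pooled into a library is not given in the sources used here.

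GATA1 is a zinc finger factor that eosinophils need to form, and it also drives erythroid, megakaryocyte and mast cell genes. GATA2 acts earlier, in stem and progenitor cells, and stays on in mast cells and basophils. PU.1, the product of Spi1, is an ETS factor of myeloid and B cells whose dose relative to GATA1 steers granulocyte fates. The C/EBP factors are leucine zipper proteins. C/EBP alpha opens the granulocyte program and C/EBP epsilon drives granule genes, C/EBP beta and delta respond to inflammation, and C/EBP gamma pairs with other C/EBP members. ID2 has no DNA-binding domain and holds E proteins away from DNA.

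For each gene, the table holds 1 mean read count per tissue, taken by the authors over its 2 libraries. It gives no value per library, so the spread between replicates is unknown and no test was possible for any gene. Summed over the listed genes, the mean reads came to 15947438 in pleural and 11762543 in marrow eosinophils. Levels below are RPM, the mean reads of a gene per 1000000 of these summed reads, and ratios are log2 of pleural cavity over bone marrow on that scale, after adding 0.5 mean reads. A higher or lower value below is thus a description of 2 means. The 95% intervals cover counting error only. They are exact binomial on the summed reads of both libraries, or a normal approximation where 2 members are compared. Per the study's methods the libraries were made from low input, and error from library preparation is not covered. The table holds the authors' differentially expressed genes. No listed gene had a log2 ratio between -0.47 and 0.18. The listed members had therefore already been selected for a difference, and their counts are set against all listed genes. In bulk RNA, fewer cells of a type and less RNA per cell cannot be told apart.

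Gata1 (ENSMUSG00000031162) lies on chromosome X of GRCm38 from 7959260 to 7978071 on the minus strand, and Gata2 (ENSMUSG00000015053) on chromosome 6 from 88193891 to 88207032 on the plus strand. Spi1 (ENSMUSG00000002111) spans 91082390 to 91115756 of chromosome 2 and Id2 (ENSMUSG00000020644) spans 25093799 to 25097140 of chromosome 12. Cebpd (ENSMUSG00000071637) spans 15887286 to 15891031 of chromosome 16, where its longest transcript has 1 exon. Cebpg (ENSMUSG00000056216) spans 35046422 to 35056573 of chromosome 7. No annotated gene overlapped Gata1, Gata2, Spi1 or Id2. Cebpd overlaps the gene Spidr on the other strand, and Cebpg overlaps 3 gene models, of which Gm45095 is antisense. Whether strand was used in counting is not given in the sources used here. The values of Cebpd and Cebpg are uncertain to that extent.

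Promoter windows from RefSeq on GRCm38.p6, 250 bases before to 50 bases after a start site, were matched by symbol for 6 of the 9 symbols. Spi1, Cebpd and Cebpe had no entry. The windows of Gata1 and Gata2, the members with opposite directions, are shown with those of Ccr3, Siglecf and Prg3, textbook GATA1 target genes of eosinophils whose transcripts are described below. Capitals mark GATAA, the core of a GATA factor site, and AGGAAG, an ETS core of the kind PU.1 binds, both on either strand. All windows are printed 5′ to 3′ on the strand of the gene.
Gata1, chrX:7967861-7968160, minus strand: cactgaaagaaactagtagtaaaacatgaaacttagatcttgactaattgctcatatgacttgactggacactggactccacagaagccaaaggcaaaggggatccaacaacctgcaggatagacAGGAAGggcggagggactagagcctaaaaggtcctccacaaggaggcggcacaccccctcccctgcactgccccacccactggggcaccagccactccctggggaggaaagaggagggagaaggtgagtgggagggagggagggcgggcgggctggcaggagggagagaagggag
Gata2, chr6:88193641-88193940, plus strand: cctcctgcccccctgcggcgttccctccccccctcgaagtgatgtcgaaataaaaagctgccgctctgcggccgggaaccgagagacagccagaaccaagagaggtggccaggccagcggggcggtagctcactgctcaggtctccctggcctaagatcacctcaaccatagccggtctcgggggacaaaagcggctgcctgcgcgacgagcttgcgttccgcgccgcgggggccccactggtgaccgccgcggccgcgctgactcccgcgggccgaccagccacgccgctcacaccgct
Ccr3, chr9:124021721-124022020, plus strand: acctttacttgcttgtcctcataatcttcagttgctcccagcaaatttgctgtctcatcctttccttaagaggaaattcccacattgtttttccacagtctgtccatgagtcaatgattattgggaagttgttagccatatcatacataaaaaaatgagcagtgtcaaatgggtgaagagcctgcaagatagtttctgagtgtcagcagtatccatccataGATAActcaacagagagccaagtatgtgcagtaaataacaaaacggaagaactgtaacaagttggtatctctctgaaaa
Siglecf, chr7:43351091-43351390, plus strand: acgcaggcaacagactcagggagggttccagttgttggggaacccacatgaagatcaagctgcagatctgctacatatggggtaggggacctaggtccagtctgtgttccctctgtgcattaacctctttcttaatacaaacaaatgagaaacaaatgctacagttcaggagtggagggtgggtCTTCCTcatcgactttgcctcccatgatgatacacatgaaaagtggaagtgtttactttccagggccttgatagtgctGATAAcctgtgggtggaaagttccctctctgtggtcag
Prg3, chr2:84987965-84988264, plus strand: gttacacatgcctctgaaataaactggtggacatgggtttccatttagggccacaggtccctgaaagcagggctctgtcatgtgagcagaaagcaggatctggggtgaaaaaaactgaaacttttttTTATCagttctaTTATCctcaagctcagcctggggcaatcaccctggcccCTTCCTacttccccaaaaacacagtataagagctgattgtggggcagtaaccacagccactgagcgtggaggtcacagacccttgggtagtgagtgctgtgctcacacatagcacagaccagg

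The start site of the Gata1 window lies at a GENCODE transcript start inside the gene, 10161 bases downstream of the annotated 5′ end. That of the Gata2 window shown is the annotated 5′ end itself. The 6 symbols with a window were Gata1, Gata2, Id2, Cebpg and the unlisted Cebpa and Cebpb, with 7 windows in all. These windows are rich in G and C, from 57.3% in Gata1 to 80.7% in Cebpb. The shares over all windows are not matched for this. None of the 7 windows held GATAA, which 25.4% of all 32851 windows held. The Gata1 window held 1 AGGAAG, 125 bases upstream of the start site, and no other member window held it, against 35.4% of all windows. TTGCNNAA, the core of a C/EBP site, was in none of the 7 windows and in 10.8% of all windows. CANNTG, the E-box that E proteins bind, was in 4 of the 7 and in 72.3% of all windows. Among textbook GATA1 targets, 4 of the 5 with a window held GATAA, and Epx did not. The target windows hold less G and C than the member windows, from 39.0% in Ccr3 to 53.7% in Epx. The 2 sets of windows were not matched for this. The windows shown place GATAA 29 bases upstream of the start site in Ccr3, 12 bases downstream in Siglecf, and 123 and 111 bases upstream in Prg3. GATAA was thus present at target genes that were higher and at one that was lower in pleural eosinophils. A match of letters is not a binding site, and the absence of a match concerns these windows only.

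Gata1 and Gata2 went in opposite directions. Gata1 was higher in pleural eosinophils, with 7241 mean reads against 2477 in marrow eosinophils. On the scaled measure it had 454 and 211 RPM, a log2 ratio of 1.11 (counting interval 1.06 to 1.16), or 2.16-fold higher. Gata2 had 113 mean reads in pleural and 633 in marrow eosinophils. It went from 53.8 RPM in marrow to 7.09 in pleural eosinophils, a log2 ratio of -2.92 (counting interval -3.14 to -2.72), or 7.57-fold lower. Gata2 was therefore the member with the largest ratio in either direction, under each of the 4 scalings tried. Whether Gata1 passes a log2 ratio of 1 depended on the scaling. It was 1.55 without scaling, 0.92 when the 50 listed genes with the most reads were left out of the sums, and 0.66 when set to the median ratio of the 1524 listed genes that reach 1000 mean reads in each tissue. Gata2 stayed between -2.48 and -3.36 under the same alternatives.

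The balance of the pair needs no scaling, because both values come from the same libraries. In marrow eosinophils there were 3.91 Gata1 reads for each Gata2 read, and in pleural eosinophils 64.1. The ratio of Gata1 to Gata2 was thus 16.4-fold higher in the pleural cavity, a log2 difference of 4.03 (counting interval 3.82 to 4.24). Per kilobase of the longest transcript, Gata1 exceeded Gata2 7.35-fold in marrow and 120-fold in pleural eosinophils. Gata2 transcripts are a hallmark of mast cells, basophils and progenitors, and markers of these cells were also lower. All 6 basophil and mast cell markers fixed for the comparison had a log2 ratio under -1, beside 50.5% of all listed genes. Their sum was 1057 RPM in marrow and 18.4 in pleural eosinophils. Prss34, a basophil protease, had 3810.5 and 4.5 mean reads, and Cpa3, a mast cell carboxypeptidase, had 2802 and 17.5. None of the 6 was at 0 in either tissue. Of 3 progenitor markers, Cd34 and Kit were listed and had log2 ratios of -3.58 and -3.29. The part of such cells in the Gata2 ratio was not tested.

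**Figure D1:**
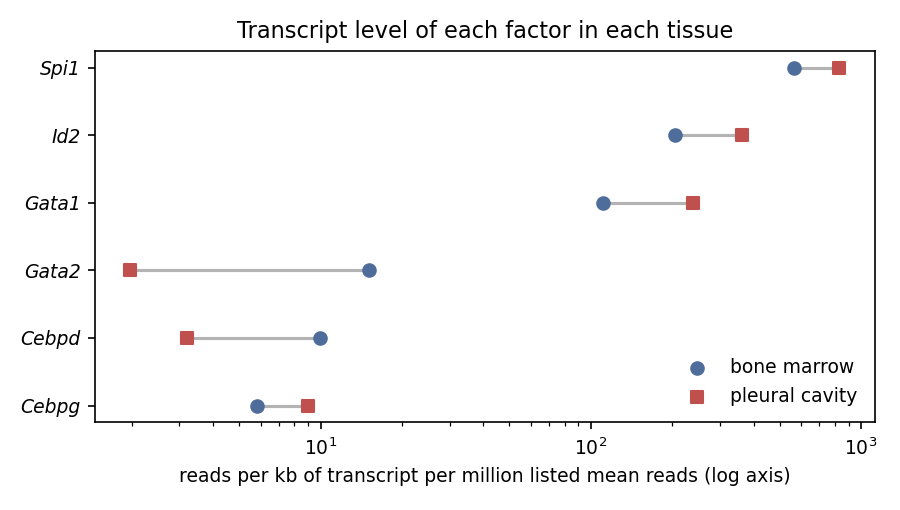
Level of each listed factor in bone marrow (circles) and pleural cavity (squares) eosinophils, as reads per kilobase of the longest transcript (RPM per kilobase), on a log axis. Each point is the authors' mean over 2 libraries, without error bars because the table has no values per library. Spi1, Id2 and Gata1 lie well above the other factors in both tissues, and only Gata2 and Cebpd have the square to the left of the circle.

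Spi1 had the highest level per kilobase of the 6 members in both tissues. It had 26912.5 mean reads in pleural and 13472 in marrow eosinophils. It had 1688 and 1145 RPM, a log2 ratio of 0.56 (counting interval 0.54 to 0.58). Spi1 was higher in the pleural cavity by less than Gata1 was. Its ratio was 0.12 under the median-ratio scaling, so how far it lies above 0 rested on the scaling. Per kilobase, the level of Gata1 was 0.197 of that of Spi1 in marrow and 0.288 in pleural eosinophils. The read ratio of Gata1 to Spi1, the pair whose balance is tied to granulocyte fate, was 1.46-fold higher in pleural eosinophils, a log2 difference of 0.55 (counting interval 0.50 to 0.60) that no scaling changes. Neutrophils and their precursors also express Spi1. The sum of 10 neutrophil markers was 90071 RPM in marrow and 2257 in pleural eosinophils, of which Retnlg made up 12499 and 2127. That of 5 granulocyte precursor markers was 27743 and 45.1. The part of such cells in the level of Spi1 and in this ratio was not tested.

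Id2 followed Spi1 in level per kilobase, with 11401 mean reads in pleural and 4753 in marrow eosinophils. It had 715 and 404 RPM, a log2 ratio of 0.82 (counting interval 0.79 to 0.86). The direction was kept under every scaling tried, with ratios from 0.38 to 1.26. These scalings rest on the listed genes alone or apply none, so the direction is conditional on them. Of the other Id and E protein genes, 2 of 6 were listed. Id1, a related inhibitor, had 2143.5 mean reads against 668 and a log2 ratio of 1.24, or 0.80 under the median-ratio scaling. Tcf4, an E protein gene, had 163.5 against 387.32, with a log2 ratio of -1.68 and reads that RSEM had divided between similar genes. Both Id genes listed were thus higher and the E protein gene listed was lower. Tcf3, Tcf12, Id3 and Id4 were not listed.

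The C/EBP family was represented by the low-level members Cebpd and Cebpg, which differed in direction. Cebpd had 191.155 mean reads in pleural and 439.435 in marrow eosinophils. This was 12 and 37.4 RPM, a log2 ratio of -1.64 (counting interval -1.82 to -1.47), or 3.11-fold lower. Its means are not multiples of 0.5, so RSEM had divided some of its reads with another gene, and its value is uncertain for that reason too. Cebpg was higher, with 673.5 mean reads against 321. It had 42.2 and 27.3 RPM and a log2 ratio of 0.63 (counting interval 0.49 to 0.77). In marrow eosinophils there were 1.37 Cebpd reads for each Cebpg read, and in pleural eosinophils 0.284, a 4.82-fold shift toward Cebpg that is independent of scaling. Of C/EBP family members, those best known from granulocyte precursors, Cebpa and Cebpe, were not listed.

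**Figure D2:**
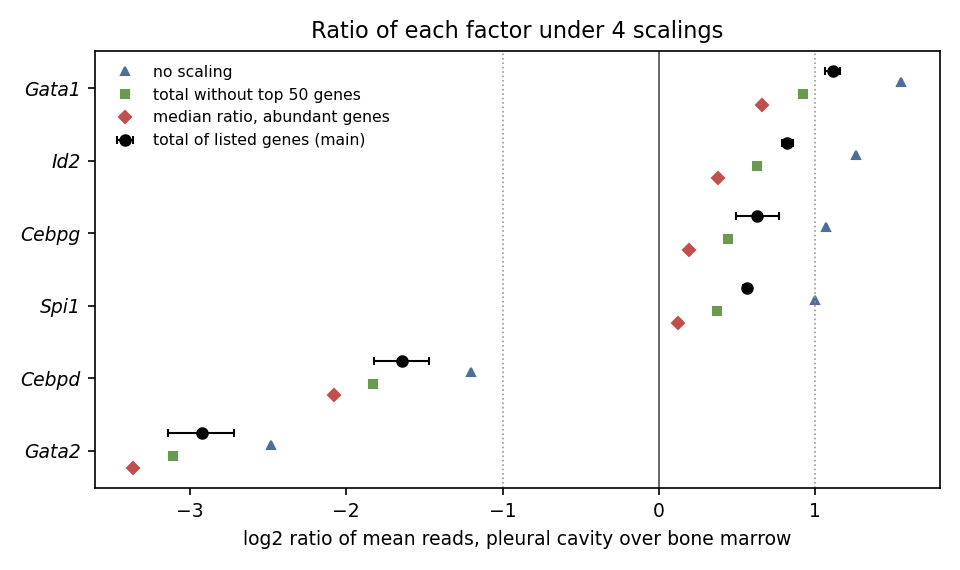
Log2 ratio of mean reads, pleural over marrow eosinophils, for each listed factor under 4 scalings. Black circles are the main values with 95% intervals for counting error only, and dotted lines mark ratios of -1 and 1. Gata1, Id2, Cebpg and Spi1 stay above 0 and Cebpd and Gata2 stay below -1 under every scaling shown, while Gata1 crosses the line at 1.

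The higher members also shifted against each other, in ratios that need no scaling. Gata1 gained on each of the other 3, by a log2 difference of 0.29 against Id2 (counting interval 0.23 to 0.34), 0.48 against Cebpg (0.34 to 0.62) and 0.55 against Spi1. Id2 gained on Spi1 by 0.26 (counting interval 0.22 to 0.30). Cebpg and Spi1 kept nearly the same ratio, 0.0250 Cebpg reads for each Spi1 read in pleural and 0.0238 in marrow eosinophils, and the log2 difference of 0.07 had a counting interval from -0.07 to 0.21. Of the lower pair, Gata2 lost ground to Cebpd by a log2 difference of -1.28 (counting interval -1.55 to -1.02).

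Per kilobase of transcript, the order of levels in marrow eosinophils was Spi1 (563 RPM per kilobase), Id2 (205), Gata1 (111), Gata2 (15.1), Cebpd (9.97) and Cebpg (5.80). In pleural eosinophils it was Spi1 (830), Id2 (363), Gata1 (239), Cebpg (8.97), Cebpd (3.20) and Gata2 (1.98). The first 3 places were the same in both tissues, and the last 3 were reversed. The spread between libraries is not known, so whether neighbours in this order differ beyond it was not tested. Among listed genes with a transcript length, Spi1 exceeded 97.8% in marrow and 98.6% in pleural eosinophils. Gata1 exceeded 89.3% and 94.3%. Gata2 exceeded 53.7% in marrow and 34.0% in pleural eosinophils. Of the summed per-kilobase level of the 6 members, Gata2 made up 1.66% in marrow and 0.137% in pleural eosinophils, and Gata1 12.2% and 16.5%. With the mean length of coding transcripts in place of the longest transcript, Gata1 came to 211 RPM per kilobase in marrow and 454 in pleural eosinophils, and the order of the 6 was the same in each tissue.

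The members' counts were set beside those of all listed genes. At any size of ratio, 4 of the 6 members were on the higher side, beside 42.5% of all listed genes (35.7% under the median-ratio scaling). Among the 3586 listed genes that reached 100 mean reads in marrow and in pleural eosinophils the share was 60.9%. All 6 members reach that floor, which was chosen after seeing the data. At a log2 ratio over 1, 1 member was higher, against 16.0% of all listed genes and 18.0% of those above the floor of 100. At a log2 ratio under -1, 2 members were lower, against 50.5% and 27.8%. Over all listed genes the shares over 1 and under -1 were 30.5% and 43.2% without scaling, and 9.04% and 57.3% under the median-ratio scaling. The median log2 ratio of the 6 was 0.59, and that of all listed genes was -1.02, or 0.44 above the floor. Gata1 had a larger ratio than 86.1% of all listed genes. Of listed genes above the floor, 3.60% had a lower ratio than Gata2 and 12.9% a lower ratio than Cebpd. Of all listed genes the shares were 29.4% and 40.4%. With 6 members, a gene more or less moves these shares widely.

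**Figure D3:**
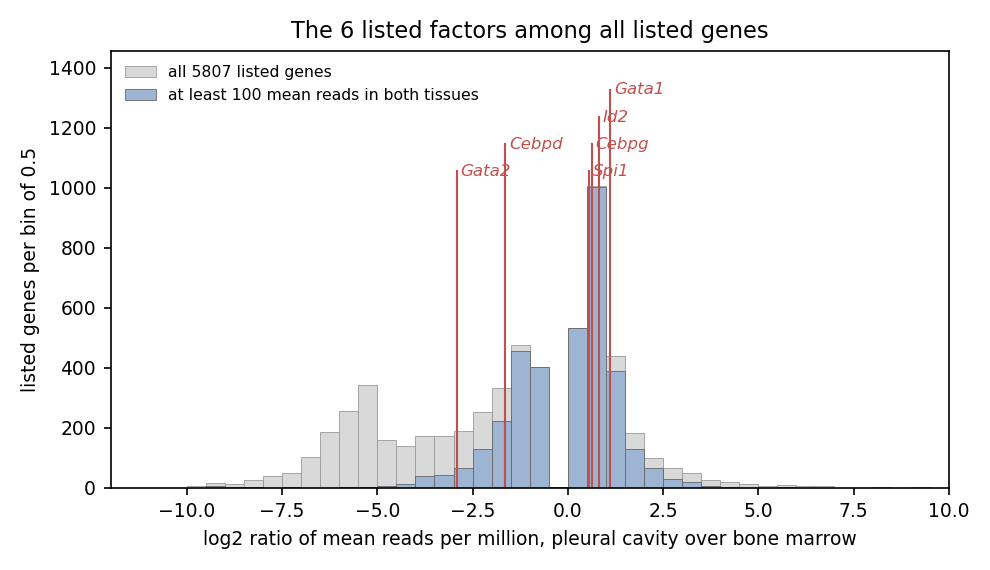
Number of listed genes per bin of 0.5 in the log2 ratio of RPM, pleural over marrow eosinophils, for all 5807 listed genes (grey) and those that reach 100 mean reads in each tissue (blue). Red lines mark the 6 factors. Spi1, Cebpg, Id2 and Gata1 fall in and beside the tallest bins above 0, from 0.56 to 1.11, and Gata2 lies at -2.92 toward the lower tail of the blue bars.

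Genes that work with GATA factors were split. Of 12 partner genes, 7 were listed, with 1 over a log2 ratio of 1 and 3 under -1, and a median of -0.71. All listed genes had 16.0% over 1, 50.5% under -1 and a median of -1.02, to be read beside each list below. Gfi1b, a GATA1-linked repressor of erythroid and megakaryocyte cells, was higher beside Gata1, with 4120 mean reads against 1378.5. Its log2 ratio was 1.14, or 0.70 under the median-ratio scaling. Nfe2, a leucine zipper factor of the same lineages, had 17710 against 8264.5 and a log2 ratio of 0.66. Lmo2, the bridging subunit of the GATA complex of progenitors, was lower beside Gata2, with 39.5 mean reads against 564 and a log2 ratio of -4.26. Klf1, an erythroid factor, had 1.5 against 163, and Fli1, an ETS factor, had a log2 ratio of -0.71. Lyl1 had a log2 ratio of 0.31 that turned to -0.13 under the median-ratio scaling. Zfpm1, Ldb1, Runx1, Cbfb and Gata3 were not listed.

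Of 8 textbook GATA1 targets in eosinophils, 7 were listed, 2 with a log2 ratio over 1 and 4 under -1, with a median of -1.85. Over all listed genes the shares were 16.0% and 50.5%. Ccr3 and Siglecf were higher, as Gata1 was. Ccr3, the eotaxin receptor, had 4236 RPM in pleural and 1460 in marrow eosinophils, a log2 ratio of 1.54. Siglecf, the lectin used to sort these cells, had 1340 and 604, a log2 ratio of 1.15, or 0.71 under the median-ratio scaling. The granule protein genes were lower. Epx, encoding eosinophil peroxidase, had 21.4 RPM in pleural and 11822 in marrow eosinophils, a log2 ratio of -9.11. Prg2, encoding major basic protein, and Prg3, a relative, had log2 ratios of -8.99 and -8.46. Alox15, a lipoxygenase gene with divided reads, had -1.85, and Csf2rb, the shared receptor chain with divided reads, named after its value was seen, had 0.27, which turned to -0.18 under the median-ratio scaling. Gata1 transcript level and granule gene level therefore did not go the same way across the tissues.

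Textbook targets of GATA2 in mast cells and basophils were listed in full, 7 of 7. Of these, 5 had a log2 ratio under -1, beside 50.5% of all listed genes. Among those 5, Kit, Ms4a2, Fcer1a and Cpa3 also stand on the basophil and mast cell marker list. The part of such cells in these values was not tested. Hdc, encoding histidine decarboxylase, had 1084 mean reads in pleural and 9726.5 in marrow eosinophils, a log2 ratio of -3.60. Ms4a2, the beta chain of the IgE receptor, had 4 and 809. The other 2 were higher, Il1rl1, the IL-33 receptor, with a log2 ratio of 2.59 and divided reads, and Il4, with 1.18. Under the median-ratio scaling Il4 was at 0.73.

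Of 8 C/EBP epsilon targets, 7 were listed and all 7 were under a log2 ratio of -1, with a median of -8.99. Over all listed genes 50.5% were under -1. Camp and Ngp, antimicrobial granule genes of neutrophils, had 12073 and 22379 RPM in marrow and 17.7 and 34.3 in pleural eosinophils. Ltf, encoding lactoferrin, had a log2 ratio of -9.27, and Lyz2, encoding lysozyme with divided reads, had -1.24. Ltf, Camp, Ngp, Lcn2 and Mmp8 also stand on the neutrophil marker list. All 5 granulocyte precursor markers were lower, and Mpo, a defining marker, had 196096.5 and 374 mean reads. All 10 neutrophil markers were lower too, with S100a8 at 229057.5 and 455 mean reads. None of these markers was at 0. The part of neutrophil precursors in these values, and in that of Cebpd, was not tested.

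PU.1 and other myeloid factors gave 14 listed genes of 18, with 3 over a log2 ratio of 1 and 8 under -1, and a median of -1.50. Over all listed genes 16.0% were over 1 and 50.5% under -1, with a median of -1.02. Egr1 and Egr2, zinc finger factors that act with PU.1 toward macrophage genes, were higher, with log2 ratios of 1.65 and 4.44. Egr2 had 2875.5 mean reads in pleural and 97 in marrow eosinophils. Ets1 and Cux1 had log2 ratios of -1.62 and -1.39. Ikzf1 had -0.58. Xbp1, which eosinophil precursors need to survive, had 0.31, turning to -0.13 under the median-ratio scaling. Named after their values were seen, the precursor factors Myb and Gfi1 had log2 ratios of -5.06 and -5.24, and Irf8, a factor that eosinophil progenitors use, had -2.31. Of 10 PU.1 targets, 4 were listed. Csf1r, the M-CSF receptor, had 20627.5 mean reads against 3973.5 and a log2 ratio of 1.94, and Cd14 had 1.51. Csf3r, the G-CSF receptor with divided reads, had -4.25, and Itgam had 0.35, turning to -0.09 under the median-ratio scaling.

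C/EBP regulators and other leucine zipper genes gave 7 listed of 12, with 2 over a log2 ratio of 1, 3 under -1 and a median of 0.50. Over all listed genes the shares were 16.0% and 50.5%, and the median -1.02. Nfil3 and Batf, leucine zipper factors of immune cells, were higher, with log2 ratios of 1.40 and 1.38. Under the median-ratio scaling these were 0.96 and 0.93. Jun, an AP-1 subunit, was lower, with 2685.5 mean reads against 8386.5 and a log2 ratio of -2.08. Trib1, which promotes the degradation of C/EBP alpha and is needed for normal eosinophil identity, had 0.50. Tef had 0.69, and Hlf, a stem cell factor, had 1 mean read in pleural and 106 in marrow eosinophils. Over the 54 listed genes of these 8 lists, 13 had a log2 ratio over 1 and 31 under -1, a share of lower genes to be read beside the 50.5% of all listed genes.

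**Figure D4:**
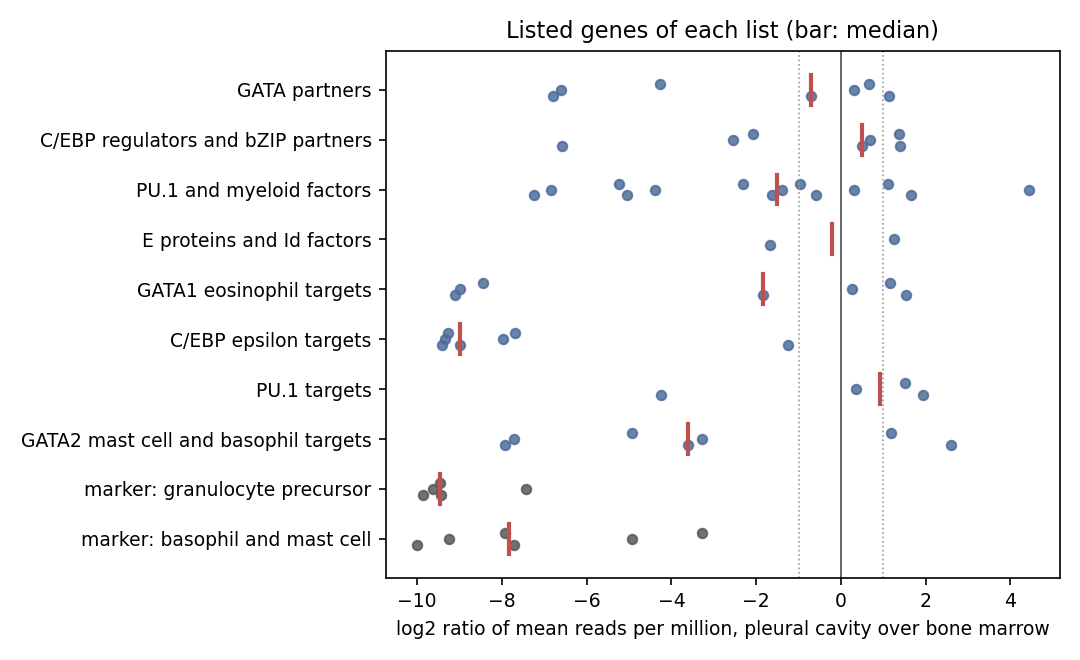
Log2 ratio of RPM, pleural over marrow eosinophils, for each listed gene of the 8 lists of partners, regulators and targets and of 2 marker lists (one point per gene). Red bars are medians and dotted lines mark ratios of -1 and 1. The GATA1 targets split into Csf2rb, Siglecf and Ccr3 above 0, Alox15 at -1.85 and the granule genes Prg2, Prg3 and Epx below -8, the C/EBP epsilon targets lie below -1, and both marker lists lie below -3.

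The labelled cell type was checked against its markers. Of 6 eosinophil markers, 5 were listed. Siglecf, Ccr3 and Adgre1, which encodes F4/80, had 7105.5 mean reads or more in each tissue and were higher in pleural eosinophils. SiglecF and F4/80 were used in both sorts, so the presence of Siglecf and Adgre1 is no independent check of the label. Epx and Prg2 were lower, at -9.11 and -8.99. Il5ra was not listed. The 5 listed eosinophil markers came in sum to 62075 RPM in marrow and 10326 in pleural eosinophils. The 10 neutrophil markers came to 90071 and 2257, and the 5 granulocyte precursor markers to 27743 and 45.1. In marrow the neutrophil sum thus exceeded the eosinophil sum. The names marrow and pleural eosinophils follow the labels. The study's methods report near-complete purity of the sorted eosinophils, with Wright-Giemsa staining of the cells. How these marker sums relate to that purity, and the share of other cells in each tissue, was not tested. Among other cells, 5 of 7 monocyte and macrophage markers were listed. Of these 5, 4 were higher in pleural eosinophils, beside 42.5% of all listed genes. The log2 ratios of these 4 markers were 1.94 for Csf1r, 0.92 for C1qa and 1.77 for C1qb, complement genes of macrophages, and 3.0 for Fn1, encoding fibronectin. Ly6c2, a marker of classical monocytes with divided reads, was lower, at -5.62. The list's sum was 2455 RPM in marrow and 2321 in pleural eosinophils, of which Ly6c2 made up 1879 and 38.2. None of the 5 was at 0. The part of such cells in the values of Spi1, Csf1r, Cd14 and Egr2 was not tested. Erythroid cells express Gata1 too, and the erythroid markers Klf1 and Car1 had 163 and 296.5 mean reads in marrow and 1.5 each in pleural eosinophils. The part of such cells in the Gata1 ratio was not tested. The 3 listed megakaryocyte markers came to 239 in marrow and 106 in pleural eosinophils, with Itga2b at -2.61 and Pf4 at 3.66. Of 5 lymphoid markers only Nkg7, which granule-bearing lymphocytes express, was listed, at -6.97.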

How the data were processed

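The authors trimmed reads with SOAPnuke, aligned them to GRCm38 (GENCODE vM25) with HISAT2 2.1.0, mapped them to genes with Bowtie2 2.2.5 and estimated counts with RSEM 1.2.8. The values in the deposited table are RSEM expected counts, given by the authors as 1 mean per tissue over its 2 libraries, and they are not scaled for depth. Its other columns hold the authors' DESeq2 comparison (fold change, p-value and q-value) and were not used. There were 0 unused per-sample columns. The table has no column per library, so the depth of each library is unknown. A count test per gene had been set for the case that it had such columns and could not be run.

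Here the mean reads were scaled to the sum over listed genes. Log2 ratios used a pseudocount of 0.5 mean reads, and a log2 ratio of 1 in either direction was the threshold. Ratios were described, not tested. Counting intervals of a gene between tissues (Clopper-Pearson, 95%) used the mean times 2. Those for the ratio of 2 members used a normal approximation on the log scale from the same counts. Transcript lengths and positions came from GENCODE vM21 on GRCm38, and the longest transcript of a gene was used. Ensembl identifiers found 5656 of 5807 listed genes there. Promoter windows came from RefSeq (GRCm38.p6). Means that are not multiples of 0.5 are called divided reads, since RSEM splits reads between similar genes. The calculation was tested on simulated data in which few genes differed. That test does not bear on the choice of scaling, because all listed genes here had been selected for a difference. Named genes were every member, up to 6 listed genes with the most reads from each list of partners, regulators and targets, and 2 from each marker list. Others are said to be chosen after their values were seen, or belong to a marker list. The summed level of the erythroid marker list is not reported here. The members and lists were chosen with earlier results of these data known. The work was done in Python 3.11.15 with numpy 2.4.6, pandas 2.3.3, matplotlib 3.10.9 and scipy 1.17.1.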

Additional observations from a re-analysis of the deposited data

How the results depend on the processing

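The sign of each member's ratio was kept under the 3 alternative scalings, and its size moved with the scaling. Apart from no scaling, each rests on the listed genes, all selected for a difference. No depth scale from other genes was available, so where 0 lies is uncertain, which matters most for the smaller ratios of Spi1, Cebpg and Id2. A change of pseudocount could not turn a sign at these read counts. The study's methods set an absolute log2 fold change over 1, whereas Spi1, Cebpg and Id2 lie within 1 on the main scale here. The authors' fold changes were not used, so whether their scale keeps these signs was not checked. Without scaling, the log2 ratios were 1.55 for Gata1, -2.48 for Gata2, 1.0 for Spi1, 1.26 for Id2, -1.20 for Cebpd and 1.07 for Cebpg. With the median ratio of abundant genes they were 0.66, -3.36, 0.12, 0.38, -2.08 and 0.19 in the same order. With the 50 listed genes with the most reads left out of the sums, Gata1 was at 0.92, Spi1 at 0.37, Id2 at 0.63, Cebpd at -1.83 and Cebpg at 0.44, and Gata2 stayed within its counting interval. No pseudocount or one of 5 left all 6 within theirs. By construction a scaling shifts all genes alike. The median ratio lowers the unscaled values by 0.88, and a scaling that lowered them by more than 1.0 would turn Spi1 first. Members over a log2 ratio of 1 numbered 3 without scaling, 0 with the median ratio and 0 with the 50 genes left out (a count added after seeing the data). They numbered 4 at a threshold of 0.5 and 0 at 2. Members under the threshold numbered 2 under each scaling, and 1 at a threshold of 2. Of the genes on the lists of partners, regulators and targets, 6 were over a log2 ratio of 1 with the median ratio and 2 at a threshold of 2, in place of 13. Over all listed genes, 929 were over a log2 ratio of 1, 1770 without scaling and 525 with the median ratio. Of the other values compared, which are counts per list or over all listed genes and levels per kilobase, 28 moved and 52 did not. No paired analysis was possible because the means carry no replicate numbers, and leaving out a library was not run for the same reason. Depth limits Gata2 and Cebpd most, with the widest counting intervals.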

Other observations

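Among the 54 listed genes of the lists of partners, regulators and targets, 6 (11.1%) had at most 3 mean reads in pleural eosinophils, beside 17.9% of all listed genes. In marrow eosinophils 0 had so few, beside 0.620% of all listed genes. The 6 genes are named here after their values were seen. Erg had 127 mean reads in marrow and 1 in pleural eosinophils, Hoxa9 had 112 and 0.5, Hlf had 106 and 1, Klf1 had 163 and 1.5, and Mecom had 30.5 and 1.5. Tal1 had 35.5 in marrow and 0 in pleural eosinophils, at least 32.1-fold lower when 3 counts over both libraries are taken as the floor. Meis1, a partner of Hoxa9 also named after its values were seen, had 2065.5 mean reads in pleural and 706 in marrow eosinophils. Its log2 ratio was 1.11, or 0.67 under the median-ratio scaling.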
